A study of Homo sapiens with 10 samples.

Results

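Thyroid organoids grown from human embryonic stem cells were compared at day 45, a week after SB431542 had been added to their medium, and at day 38, just before. The comparison rests on 4 of the 10 libraries of the series, 2 at day 38 and 2 at day 45, and these were chosen by the day in their labels. Each library is bulk RNA-seq of GFP-positive cells that were sorted from pooled organoids, and the 2 libraries of a day are biological replicates by the study's methods. The cells come from 1 line, a derivative of HES3 in which GFP replaces exon 2 at one NKX2-1 allele and in which doxycycline switches on NKX2-1 and PAX8 transgenes. In both groups the cells had gone through activin A, a transient doxycycline pulse and 8-br-cAMP, a cell-permeable cAMP analogue. The day 38 cells were then in medium with hrTSH, a recombinant human thyrotropin, and dexamethasone, a synthetic glucocorticoid. By the study's text the day 45 cells stayed on both and also received SB431542, whereas their labels name hrTSH and SB431542 without dexamethasone. The start of SB431542 is given as day 37 in one passage of the study's text and as day 38 in another.

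SB431542 blocks the kinase of the type I receptors for TGFβ, activin and nodal (TGFBR1, ACVR1B and ACVR1C). Ligand binding normally makes these receptors phosphorylate SMAD2 and SMAD3, which enter the nucleus with SMAD4 and turn on matrix genes and feedback inhibitors such as SMAD7. BMPs use other type I receptors and SMAD1, SMAD5 and SMAD9, with the ID genes as targets. In epithelia, TGFβ is known for loosening junctions and building matrix, and in thyroid cells for restraining growth and differentiation. The defining thyroid genes TG, PAX8 and NKX2-1 were counted in all 4 libraries. Cells without SB431542 at day 45 were not analysed here, so the inhibitor and the 7 days of further culture cannot be told apart in any value below.

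Counted reads came to 10333933 and 9121301 in the day 38 libraries and to 7247268 and 9592839 in the day 45 libraries. A level is given in CPM, the usual depth-scaled count, with TMM scaling, and a difference as the log2 fold change of day 45 against day 38 with its standard error (SE, n = 2 per day). Over all genes tested, log2 CPM correlated at r = 0.970 between the day 38 libraries, at 0.940 between the day 45 libraries and at 0.915 to 0.927 between the days. RN7SK, a small nuclear RNA of the transcription machinery, took 8.17 and 6.76% of the counts at day 38 and 7.04 and 5.14% at day 45. The lowest value that 3 counts give in these libraries lies between 0.324 and 0.435 CPM, which covers counting error only.

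Of 21014 genes tested, 2353 (11.2%) passed an adjusted p of 0.05 in edgeR's quasi-likelihood test. At day 45, 1019 genes (4.85%) were higher and 1334 (6.35%) were lower, and the median log2 fold change over all genes was -0.02. Every count of called list members below is to be read against these shares. Without day 38 replicate 1 the counts were 585 higher and 753 lower, and without day 38 replicate 2 they were 501 and 715. Without day 45 replicate 2 the higher genes came to 679. A core of 380 higher and 491 lower genes passed with each of the 4 libraries left out in turn. The libraries of the days did not overlap in CPM for 5310 genes higher at day 45 (25.3% of those tested) and 6201 lower (29.5%). Between day 31, at the end of cAMP, and day 38, 3160 genes (15.0%) had passed the same test, 1850 higher (8.80%) and 1310 lower (6.23%).

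**Figure D1:**
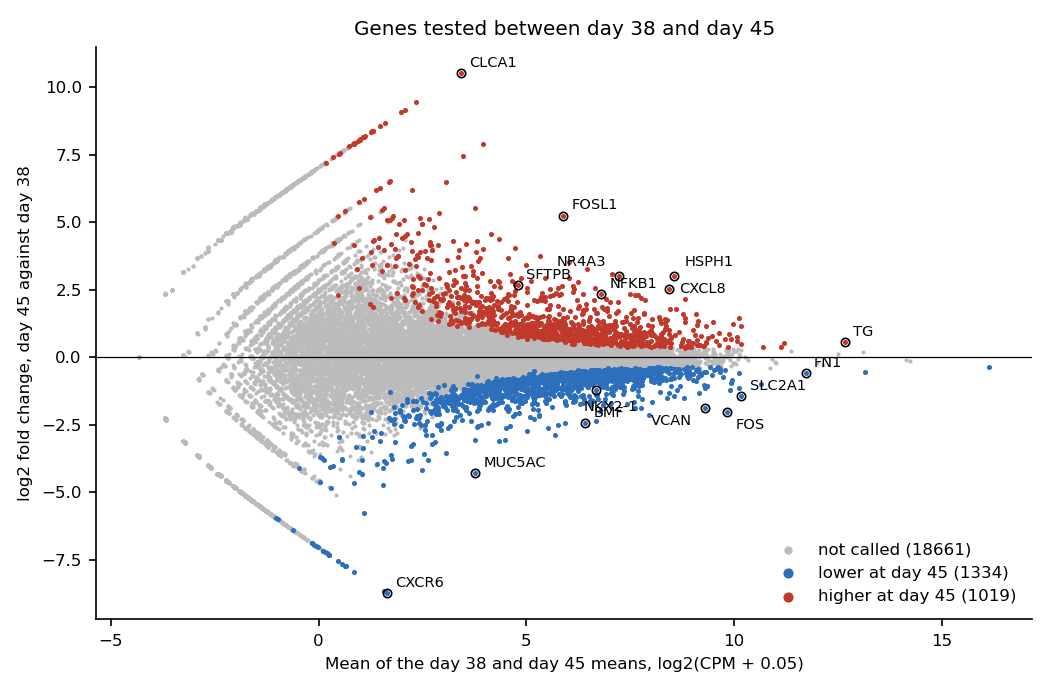
Each point is 1 of the 21014 genes tested, with its mean level in CPM over both days (x axis, log2 scale) and its log2 fold change of day 45 against day 38 (y axis). Red points (1019) were higher and blue points (1334) lower at day 45, and the lines of points at the left are genes with 0 counts at one of the days.

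In the main fit inflammatory genes had the largest share of members higher among lists of 10 or more. With DESeq2 the heat shock list had the larger share (8 of 12 against 17 of 26). So it did with the 4 libraries of days 38 and 45 alone (10 of 12 against 20 of 26). All 26 genes of the inflammation list that were tested had a positive log2 fold change, 18 passed the test and none passed it downward, with a median of 1.84. Without one library at a time, 12 of the 18 passed each time. The background is 4.85% of genes higher. The members that rose included cytokines, chemokines, NF-κB subunits and inhibitors, an adhesion molecule, a cyclooxygenase and a complement protein. NF-κB is a family of dimeric transcription factors that inhibitors of the IκB type hold in the cytoplasm until a cytokine or stress signal releases them.

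Promoter stretches of the genes described next are shown because 8 of the 16 called members with a RefSeq promoter carry the NF-κB motif GGAATTTCC (either strand) in the 250 bases before the start site. Over the whole list it was 9 of the 20 members with a promoter entry, among them the related chemokine genes CXCL1, CXCL2, CXCL3, CXCL5, CXCL6 and CXCL8. Over all genes it was 0.413% of 35116 promoter windows. A member counted if any of its windows held the motif, so these shares are in unlike units. They are no test, as the list itself includes NF-κB genes. The motif was picked after the values were seen, and its presence describes the sequence and not binding. Each line gives the 120 bases that end just before a start site, 5′ to 3′ on the gene's strand (GRCh38.p14), with the motif in capitals.
CXCL8 (chr4:73740449-73740568, plus strand): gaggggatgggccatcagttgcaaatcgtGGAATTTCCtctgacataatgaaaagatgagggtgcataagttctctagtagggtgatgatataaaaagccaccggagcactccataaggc
CXCL1 (chr4:73869273-73869392, plus strand): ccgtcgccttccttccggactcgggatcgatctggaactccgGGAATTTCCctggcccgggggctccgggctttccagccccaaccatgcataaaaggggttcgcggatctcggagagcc
CXCL2 (chr4:74099196-74099315, minus strand): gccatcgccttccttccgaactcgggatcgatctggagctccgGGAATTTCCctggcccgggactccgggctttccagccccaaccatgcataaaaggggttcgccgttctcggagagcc
NFKB1 (chr4:102501239-102501358, plus strand): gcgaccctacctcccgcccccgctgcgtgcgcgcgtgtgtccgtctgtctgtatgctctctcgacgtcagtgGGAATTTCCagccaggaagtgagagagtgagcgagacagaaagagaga
The motif begins 91 bases before the start of CXCL8, 78 before CXCL1, 77 before CXCL2 and 48 before NFKB1. The CXCL1 and CXCL2 stretches are near copies of each other, and the mature transcripts of CXCL1, CXCL2 and CXCL3 are also alike, so reads could be shared among them.

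CXCL8, the neutrophil chemokine interleukin-8 (chr4:73740519-73743716 on GRCh38), stood at 121 and 82.4 CPM at day 38 and at 638 and 543 CPM by day 45. Its log2 fold change was 2.54 ± 0.18 (adjusted p = 2.81e-12), after a rise of 4.14 between days 31 and 38. CXCL2 went from 275 and 263 to 817 and 834 CPM (1.62 ± 0.16, adjusted p = 4.79e-09). In each of these genes both day 45 libraries lay above both day 38 libraries. CXCL3, CXCL1 and CCL20, a chemokine for dendritic cells and lymphocytes, had log2 fold changes of 2.65 ± 0.33, 2.11 ± 0.39 and 2.30 ± 0.33. CCL2, a monocyte chemokine, had 49.0 and 55.4 CPM at day 38 and 74.9 and 81.6 by day 45 and missed the threshold (0.58 ± 0.29, adjusted p = 0.231), although it passed when the 4 libraries were fitted alone (0.62, adjusted p = 0.00754).

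Among the NF-κB genes, NFKB1, which encodes the p105 precursor of p50 (chr4:102501330-102617302), had 32.9 and 40.9 CPM at day 38 and 170 and 203 CPM by day 45 (2.34 ± 0.19, adjusted p = 7.11e-11). Between days 31 and 38 NFKB1 was not called (-0.15, adjusted p = 0.693). TNFAIP3, a ubiquitin-editing enzyme that shuts NF-κB signalling off, stood at 60.03 and 59.0 and then at 300.4 and 303 CPM (2.34 ± 0.20, adjusted p = 1.96e-10). NFKBIZ, a nuclear IκB protein, and NFKB2 had log2 fold changes of 1.26 ± 0.14 and 1.25 ± 0.25. NFKBIA, the IκBα inhibitor, is counted here in the glucocorticoid list and had 1.49 ± 0.14 (adjusted p = 1.59e-09). ICAM1, an adhesion molecule for leukocytes, went from 24.1 and 19.9 to 126 and 109 CPM (2.41 ± 0.29). PTGS2, the inducible cyclooxygenase, went from 58.0 and 57.5 to 201 and 176 CPM (1.70 ± 0.23).

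C3, the central complement protein, had 75.5 and 29.0 CPM at day 38 and 212 and 150 by day 45 (1.79 ± 0.28, adjusted p = 1.45e-05), and the value moved to 2.64 without day 38 replicate 1. IL6 was counted at 2.48 and 2.44 CPM at day 38 and at 22.4 and 12.01 by day 45 (2.79 ± 0.89, adjusted p = 0.037). The IL6 call was lost with any one library left out, with adjusted p-values from 0.0762 to 0.391. TNF was not among the genes tested. In the interferon list 3 of 19 members rose (MX1, IRF1 and B2M), against 4.85% of all genes, and none fell. B2M passed with each library left out, IRF1 lost its call without day 38 replicate 1, and MX1 kept it only without day 45 replicate 1.

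Of 5 blood and immune markers tested, which the sort for GFP should remove, 2 were called higher (CD68 and CD14) and neither passed with each library left out. CD68, a lysosomal protein of macrophages that other cells also make, had 11.4 and 4.77 CPM at day 38 and 36.4 and 35.9 by day 45 (2.15 ± 0.43, adjusted p = 0.000526). Its call was lost without day 38 replicate 2 (adjusted p = 0.0513), and its value was 2.92 without day 38 replicate 1. CD14, a lipopolysaccharide co-receptor of monocytes, had 0 counts at day 38, against 22 and 36 at day 45, and its call was lost without either day 38 library (adjusted p = 0.0922 and 0.0925). PTPRC, which encodes the pan-leukocyte surface protein CD45, had 5 and 5 counts at day 38, against 4 and 0 at day 45. Over the 5 tested members of the blood list the summed level was 15.0 and 7.92 CPM at day 38 and 48.5 and 52.2 CPM by day 45, with CD68 the most counted. ITGAM, an integrin chain of myeloid cells outside that list, had 2 and 1 counts at day 38, against 162 and 88 at day 45. The ITGAM value was 5.73 without day 45 replicate 1, with its call lost (adjusted p = 0.0866). CD3E and the globins HBB, HBG1, HBG2 and HBE1 were too low to be tested. Their part in the inflammatory values was not tested.

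Heat shock genes were the next group to rise. They encode chaperones that refold proteins and are under heat shock factor 1, which binds repeats of GAA and its reverse complement. All 12 tested members had a positive log2 fold change, 7 rose and none fell, and the 7 passed with each library left out. The median was 1.24, against -0.25 between days 31 and 38. Those 2 medians share the day 38 libraries.

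Sequences of 2 of these promoters are shown for the heat shock element, sought as GAA, TTC and GAA with a pair of any bases between neighbours (either strand) and also picked after the values were seen. It was found in 4 of the 12 members with a promoter entry, 3 of them among the 7 that rose, and in 0.441% of all windows. Members were again counted by any of their windows, and the shares are no test. No window held an overlap of this motif with the NF-κB motif. Capitals mark the element, read on the gene's strand in reverse complement.
HSPA8 (chr11:123062137-123062256, minus strand): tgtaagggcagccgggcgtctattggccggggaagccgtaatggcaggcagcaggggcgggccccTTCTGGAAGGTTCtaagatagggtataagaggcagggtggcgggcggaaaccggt
HSP90AA1 (chr14:102087045-102087164, minus strand): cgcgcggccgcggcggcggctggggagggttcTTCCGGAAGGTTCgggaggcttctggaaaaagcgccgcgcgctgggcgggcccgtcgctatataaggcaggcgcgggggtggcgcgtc
The element begins 55 bases before the HSPA8 start and 88 bases before the HSP90AA1 start shown, which is 1 of 2 starts in RefSeq. NFKB1 above also has 2.

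HSPH1, a nucleotide exchange factor that works with HSP70 (chr13:31134973-31162388), had the lowest p-value of any rise. It stood at 456 and 417 CPM at day 31, at 82.5 and 85.3 at day 38 and at 630 and 714 by day 45, so the day 38 libraries were low beside both neighbours. The log2 fold change was 3.001 ± 0.13 for day 45 against day 38 (adjusted p = 9.1e-18) and 0.62 for day 45 against day 31 (adjusted p = 0.00017). DNAJA1, a J-domain co-chaperone, went from 166 and 162 to 688 and 792 CPM (2.17 ± 0.13, adjusted p = 6.26e-14). DNAJB1 and BAG3, which bring clients to and from HSP70, had 2.04 ± 0.17 and 1.76 ± 0.22. HSPA8, the constitutive HSP70, went from 438 and 386 to 996 and 1055 CPM (1.32 ± 0.11), and HSP90AA1 from 720 and 708 to 1499 and 1696 CPM (1.16 ± 0.11). HSPD1, the mitochondrial chaperonin, had the smallest rise of the 7 (0.67 ± 0.14, adjusted p = 0.000757). HSPA1A, the classic inducible HSP70 with a near-identical copy in HSPA1B, had 6 and 4 counts at day 38, against 17 and 1 at day 45, and it was not called. Without day 45 replicate 1 its value was -2.21, so the positive sign of all 12 members rests on that library.

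Chaperones of the endoplasmic reticulum did not share this pattern as a group, with 3 of 23 members higher, 1 lower and a median of -0.01, and none of the 3 was called without day 38 replicate 1, day 38 replicate 2 or day 45 replicate 1. Against 4.85% of all genes higher and 6.35% lower, antioxidant genes had 3 of 19 members higher and none lower. The largest of the 3 was HMOX1, the haem-degrading oxygenase, which went from 3.13 and 2.91 CPM to 50.2 and 49.2 CPM (4.03 ± 0.46, adjusted p = 6.56e-08). GPX3, a secreted peroxidase, rose by 2.11 ± 0.21 and SOD2, the mitochondrial superoxide dismutase, by 1.44 ± 0.15. NFE2L3, a transcription factor of the cap'n'collar family, rose from 65.9 and 65.4 to 301 and 352 CPM (2.31 ± 0.15, adjusted p = 3.37e-13).

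**Figure D2:**
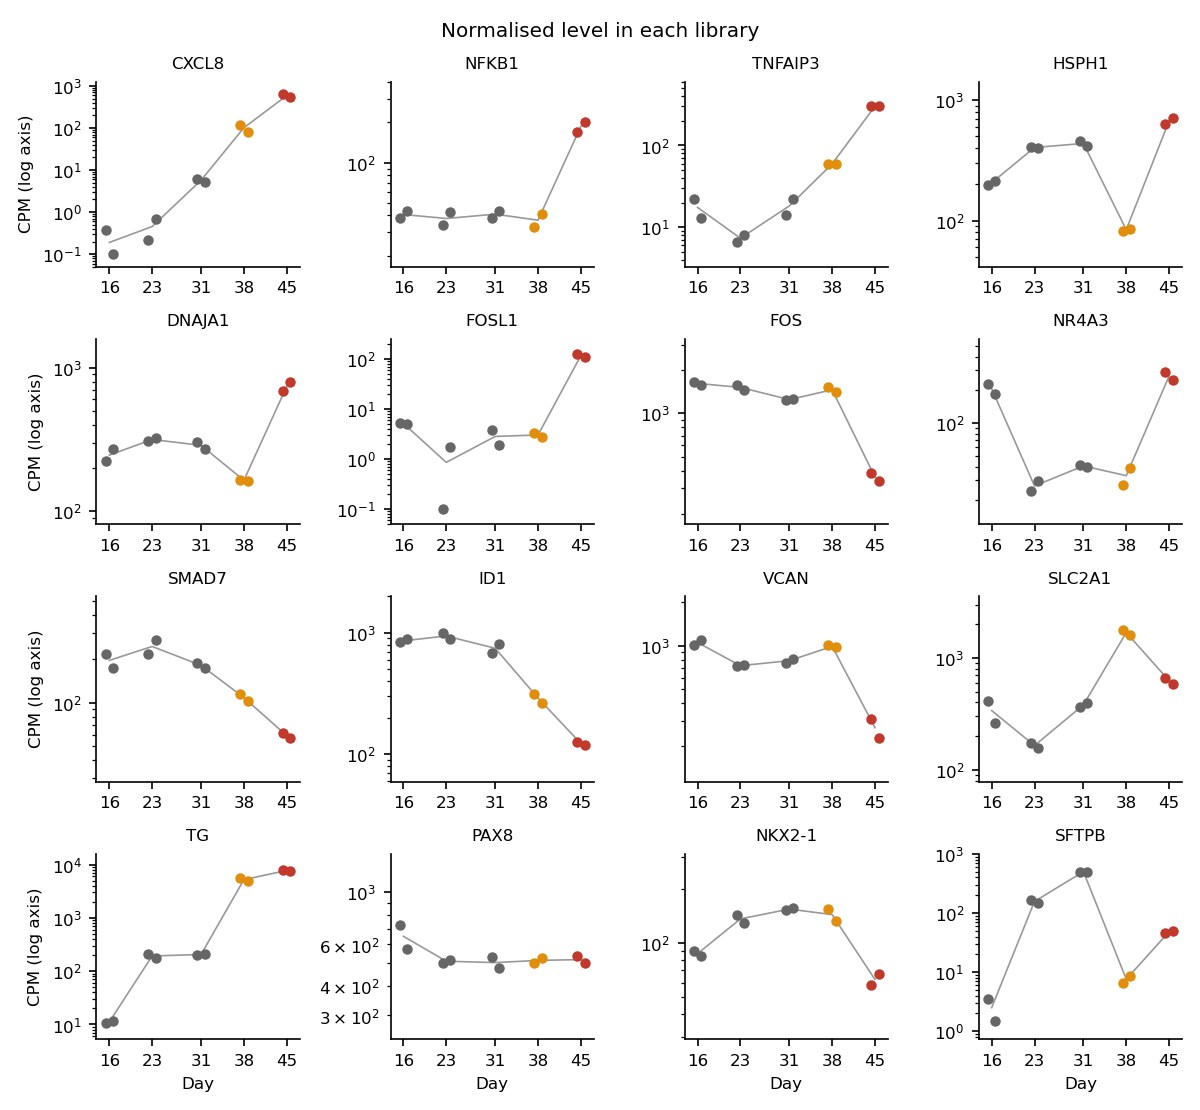
Normalised level in CPM (log axis) of 16 genes in each of the 10 libraries, by day, with a line through the daily means. Grey points are days 16, 23 and 31, orange points day 38 and red points day 45, and values under 0.1 CPM are drawn at 0.1.

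The immediate early genes moved in opposite directions. These are transcription factors and RNA regulators that cells switch on within minutes of a stimulus, FOS and JUN proteins pairing to form AP-1. Of 18 tested members 10 rose and 4 fell, and 8 and 3 of these passed with each library left out. FOS itself fell from 1518 and 1401 CPM to 382 and 338 CPM (-2.02 ± 0.11, adjusted p = 5.72e-15), the lowest p-value of any fall. FOSL1, its relative FRA-1 (chr11:65892049-65900573), rose from 3.24 and 2.79 CPM to 124 and 107 CPM (5.25 ± 0.44, adjusted p = 8.93e-11). FOSL2 and FOSB rose by 1.63 ± 0.15 and 0.81 ± 0.14. Thus within the FOS family 1 member fell and the other 3 rose, and these directions held in every alternative processing that was run.

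The EGR zinc-finger factors divided in the same way. EGR1 fell from 2224 and 2027 to 1132 and 1029 CPM (-0.98 ± 0.14, adjusted p = 3.03e-06). EGR3 rose from 16.4 and 16.9 to 167 and 151 CPM (3.25 ± 0.41) and EGR2 from 25.1 and 30.3 to 121 and 122 CPM (2.14 ± 0.28). KLF4, an epithelial differentiation factor, rose by 2.65 ± 0.21 and ATF3, a stress-induced repressor, by 0.98 ± 0.14. The motif TGANTCA of AP-1 (either strand) was in none of the 15 promoters of this list that had an entry, against 6.57% of all windows. With 15 promoters a count of 0 cannot be told from that share.

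hrTSH acts through TSHR and cAMP, so the genes of the cAMP response were read as a group. Of 17 tested, 5 rose and 3 fell, against 4.85% and 6.35% of all genes, and 4 and 2 of these passed with each library left out. The nuclear orphan receptors of the NR4A family rose together. NR4A3 went from 27.0 and 39.2 CPM to 291 and 244 CPM (3.01 ± 0.18, adjusted p = 6.26e-14), NR4A2 from 14.8 and 15.1 to 122 and 110 CPM (2.95 ± 0.36) and NR4A1 from 179 and 161 to 378 and 307 CPM (1.01 ± 0.16). PDE4D, a cAMP phosphodiesterase, fell from 271 and 277 to 186 and 180 CPM (-0.58 ± 0.13, adjusted p = 0.00172). The FGF and ERK feedback genes were also divided, with 5 of 17 higher and 3 lower, though 2 were higher without day 38 replicate 2 and 3 without day 38 replicate 1 or day 45 replicate 2. Among those that fell, FGFR2, a receptor for FGF7 and FGF10, fell by 1.23 on the log2 scale (adjusted p = 1.74e-06).

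The glucocorticoid targets were read as a further group. FKBP5, a co-chaperone of the glucocorticoid receptor, stood at 34.1 and 39.8 CPM at day 31, 142 and 157 at day 38 and 123 and 129 by day 45. TSC22D3, which encodes GILZ, stood at 66.7 and 51.9, then 140 and 120, then 131 and 122 CPM. Neither was called between days 38 and 45 (-0.24, adjusted p = 0.581 and -0.04, adjusted p = 0.933), and the sign for TSC22D3 turned under 5 alternatives, among them library size without TMM factors. Both were above day 31 at day 45 (1.77, adjusted p = 3.09e-07 and 1.09, adjusted p = 6.09e-06), and those days also differ in hrTSH, 8-br-cAMP and time. Whether dexamethasone was present at day 45 was not tested. Of the 18 list members 5 rose and 1 (DUSP1) fell, with 3 higher without day 38 replicate 2. DUSP1, a MAP kinase phosphatase also in the cAMP list, lost its call without day 38 replicate 1, day 38 replicate 2 or day 45 replicate 2, without TMM factors and with upper-quartile factors. GLUL, the glutamine synthetase, rose by 0.81 ± 0.15 and ERRFI1, an inhibitor of the EGF receptor, by 1.04 ± 0.14.

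The targets of TGFβ fell more often than they rose. Of 40 tested, 10 fell, 3 rose and 27 were not called, with a median log2 fold change of -0.32, and 9 of the 10 falls and 1 of the 3 rises (SKI, COL7A1 and CDKN1A) passed with each library left out. The background is 6.35% lower and 4.85% higher. The same list had a median of 1.01 between days 31 and 38, which shares the day 38 libraries, and 21 of its members had risen by the test in that week.

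Feedback inhibitors of the pathway were among the falls. SMAD7, which blocks the type I receptors (chr18:48919853-48950965), had 187 and 174 CPM at day 31, 114 and 102 at day 38 and 61.2 and 57.0 by day 45. Its log2 fold change was -0.87 ± 0.15 for day 45 against 38 (adjusted p = 9.17e-05) and -0.74 for day 38 against 31 (adjusted p = 0.000412), so the level had been falling before day 38. TGIF1, a SMAD corepressor, fell from 62.4 and 64.8 to 29.2 and 34.8 CPM (-0.99 ± 0.18) and BAMBI, a decoy receptor, from 67.8 and 52.4 to 35.4 and 25.3 CPM (-0.99 ± 0.18). SKIL, another SMAD corepressor, was not called (571 and 595, then 508 and 533 CPM, adjusted p = 0.486). The motif GTCTAGAC of the SMADs was in none of the 27 promoters of the list that had an entry, against 0.182% of all windows. A motif this rare would seldom turn up among 27 promoters, so its absence says nothing about the list.

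BHLHE40, a clock and hypoxia repressor that TGFβ also induces, had the lowest p-value of the list, going from 267 and 258 to 82.4 and 77.8 CPM (-1.71 ± 0.16, adjusted p = 6.39e-10). CCN2, connective tissue growth factor, fell from 483 and 424 to 235 and 291 CPM (-0.78 ± 0.13). FN1, fibronectin, fell from 4227 and 3898 to 2688 and 2735 CPM (-0.58 ± 0.09, adjusted p = 2.79e-05). HMGA2, an architectural chromatin protein, and SPOCK1, a testican, had -0.85 ± 0.12 and -1.55 ± 0.24. PMEPA1, a feedback target, had 23.6 and 21.8 and then 8.85 and 17.7 CPM (adjusted p = 0.303). CDKN1A, the p21 cell-cycle inhibitor, rose from 103 and 78.2 to 215 and 162 CPM (1.06 ± 0.21, adjusted p = 0.00041).

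Upstream of these, 2 of 9 receptors fell and none rose by edgeR, against 6.35% and 4.85% of all genes. DESeq2 called 2 lower and 1 higher. Of the 9 values 5 were positive, with a median of 0.13. TGFBR1, a receptor that SB431542 binds, had 194 and 162 CPM at day 38 and 139 and 138 by day 45 (-0.36 ± 0.15, adjusted p = 0.116). ACVR1B fell by 0.99 on the log2 scale, a call lost without day 38 replicate 2 or day 45 replicate 1 (highest adjusted p = 0.138). The type II activin receptor ACVR2B fell from 159 and 178 to 94.2 and 102 CPM (-0.78 ± 0.14, adjusted p = 8.48e-05). None of the 10 genes in the list of SMADs and SMAD ubiquitin ligases, which leaves out the inhibitory SMAD6 and SMAD7, passed edgeR's test, against 2 higher and 2 lower at an unadjusted p under 0.05 and 1 higher by DESeq2. Of 10 ligands 1 was called, against 11.2% of all genes called in either direction. It was INHBA, the activin A chain, which went from 28.4 and 26.9 to 83.7 and 64.7 CPM (1.42 ± 0.33, adjusted p = 0.00273). That call was lost without day 45 replicate 1 (adjusted p = 0.0699). TGFB2, the most counted ligand, had 153 and 138 and then 129 and 111 CPM (adjusted p = 0.241).

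Extracellular handlers of TGFβ moved in both directions. THBS1, a thrombospondin that can release TGFβ from its latent form, rose from 582 and 534 to 1104 and 983 CPM (0.90 ± 0.12, adjusted p = 9.05e-07). The latent TGFβ binding proteins LTBP1, LTBP3 and LTBP4 fell by 0.94, 0.74 and 0.79 on the log2 scale. LTBP1 and LTBP4 lost their calls without day 38 replicate 2 (adjusted p = 0.0648 and 0.0661) and LTBP3 without day 45 replicate 2 (0.0848). DCN, decorin, a proteoglycan that binds TGFβ, rose from 52.0 and 49.5 to 145 and 115 CPM (1.36 ± 0.27) but was not called by DESeq2.

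BMP signalling genes also fell in part. ID1, a helix-loop-helix inhibitor and a main BMP target, had 675 and 816 CPM at day 31, 315 and 264 at day 38 and 126 and 118 by day 45 (-1.25 ± 0.13 for day 45 against 38, adjusted p = 4.97e-09). BMP4 went over the same days from 265 and 242 to 39.0 and 43.9 and on to 18.6 and 10.2 CPM (-1.55 ± 0.20, adjusted p = 9.52e-07). Both were thus falling before day 38. BMP2 rose from 31.7 and 31.5 to 59.1 and 49.7 CPM (0.78 ± 0.18, adjusted p = 0.00233), and BMPR2, the type II receptor, fell from 426 and 480 to 276 and 325 CPM (-0.59 ± 0.12). Of the 10 BMP targets 3 fell and none rose, though the count was 1 without day 45 replicate 2. Of the 3 (ID1, ID2 and SMAD6), ID1 alone passed with each library left out.

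**Figure D3:**
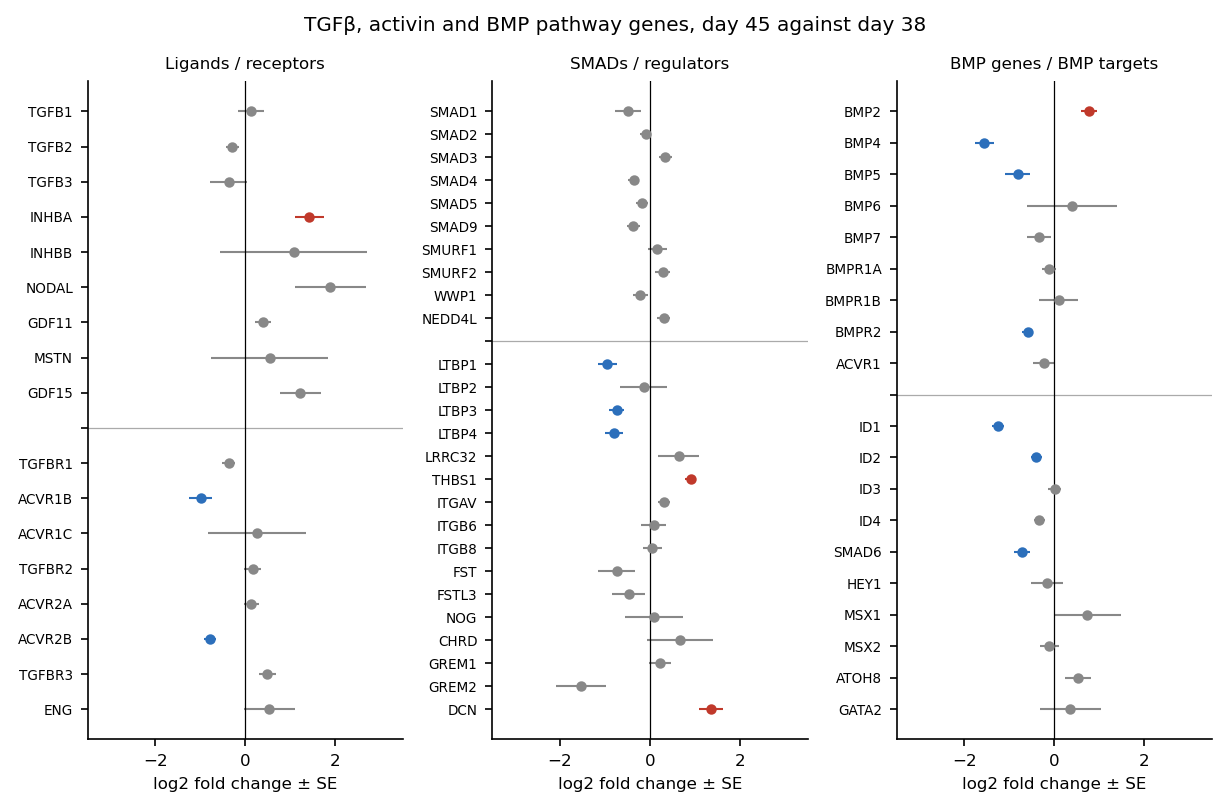
log2 fold change of day 45 against day 38 with its SE (x axis) for the ligands, receptors, SMADs, extracellular regulators and BMP genes whose mean level was 1 CPM or more. Red points were called higher by edgeR, blue points lower and grey points neither. None of the 10 members of the SMAD and SMAD ubiquitin ligase list was called by edgeR, against 1 higher by DESeq2.

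Matrix genes made up the next block. Collagens had 9 of 27 members lower and 1 higher, against 6.35% and 4.85% of all genes, with a median of -0.50. The lower count was 4 without day 45 replicate 2, and 4 passed with each library left out. COL11A1, a fibrillar collagen of cartilage, went from 192 and 205 to 49.8 and 67.1 CPM (-1.76 ± 0.18, adjusted p = 9.57e-09) and COL2A1 from 44.4 and 43.4 to 10.3 and 16.8 CPM (-1.68 ± 0.19). COL4A1, of the basement membrane, fell from 374 and 382 to 237 and 230 CPM (-0.69 ± 0.13, adjusted p = 0.000301), after 51.7 and 48.0 CPM at day 31. COL3A1, the most counted collagen, had 1903 and 2061 and then 2144 and 1677 CPM (-0.05, adjusted p = 0.892), a value whose sign turned with upper-quartile factors. VCAN, the proteoglycan versican, fell from 1005 and 973 to 312 and 228 CPM (-1.87 ± 0.13, adjusted p = 7.81e-13). TNC, tenascin C, fell from 173 and 173 to 26.4 and 41.5 CPM (-2.34 ± 0.35) but was not called by DESeq2. VCAN-AS1, which lies across VCAN on the other strand, went from 11.3 and 10.0 to 0.145 and 1.53 CPM, and as the strand setting of the counting is not given in the sources used here the pair cannot be told apart.

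Of 17 proteases and inhibitors of matrix turnover 3 rose and none fell, and the 3 passed with each library left out. TIMP3, a matrix-bound metalloprotease inhibitor, went from 337 and 341 to 712 and 671 CPM (1.03 ± 0.12, adjusted p = 2.03e-07). ADAMTS1, which cuts versican and aggrecan, rose by 1.13 ± 0.15 and MMP1, the interstitial collagenase, from 6.48 and 5.24 to 31.4 and 39.6 CPM (2.60 ± 0.55).

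Genes of junctions and polarity rose in part, 5 of 27 (CLDN4, OCLN, PARD6B, ELF3 and OVOL1) against 4.85% of all genes, and none fell. OCLN, PARD6B and ELF3 passed with each library left out. CLDN4 lost its call without day 38 replicate 2 or day 45 replicate 1, and OVOL1 without day 38 replicate 1 or day 45 replicate 1. Of 6 keratins of simple epithelia 2 rose (KRT18 and KRT20) and 1 fell (KRT19), with 5 of the 6 values positive and a median of 0.75. The higher count was 1 without day 45 replicate 1 and 0 without any other single library. KRT19 fell from 250 and 205 to 143 and 120 CPM (-0.79 ± 0.15, adjusted p = 0.000231). Fibroblast markers, which the gate should exclude, had 3 of 10 members higher (DCN, LUM and PDGFRA) and none lower, with PDGFRA not called without day 38 replicate 1 (adjusted p = 0.0872). Their summed level was 3509.9 and 3632.5 CPM at day 38 and 3826.8 and 3123.3 CPM by day 45, with COL3A1 the most counted, so the sums of the days overlapped. Their part in the matrix values was not tested.

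The thyroid genes did not move as one. Thyroid cells take up iodide, couple it to tyrosines of thyroglobulin (TG) with hydrogen peroxide from DUOX2, and hold the product in the follicle. TG went from 5545 and 4874 CPM at day 38 to 7961 and 7523 CPM at day 45 (0.57 ± 0.10, adjusted p = 0.000121), after 200 and 211 CPM at day 31. SLC5A5, the iodide transporter, had 4.64 and 8.15 and then 13.4 and 17.3 CPM, which did not overlap but missed the threshold (1.26 ± 0.75, adjusted p = 0.339), although it passed when the 4 libraries were fitted alone (1.29, adjusted p = 0.0153). TSHR, the thyrotropin receptor, had 150 and 151 and then 120 and 121 CPM (adjusted p = 0.324).

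DUOX2 passed narrowly (163 and 137, then 227 and 224 CPM, 0.59 ± 0.20, adjusted p = 0.0478), and the call was lost with any one library left out (adjusted p from 0.0883 to 0.383) and with the filterByExpr filter. IYD, the deiodinase that recovers iodide, fell from 191 and 186 to 69.1 and 80.5 CPM (-1.33 ± 0.15, adjusted p = 5.93e-08). Over the 20 members tested, 5 were higher and 3 lower with a median of 0.10. Without one library at a time the higher count was between 1 and 3, and TG alone passed each time. The other 4 were DUOX2, SLC16A10, CTSD and CTSL. The median was -0.03 when genes under 5 CPM were left out.

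Of the 4 transcription factors of the thyroid 3 fell. NKX2-1 (chr14:36516392-36521149) went from 154 and 133 to 58.1 and 66.7 CPM (-1.20 ± 0.15, adjusted p = 6.3e-07). It drives the reporter by which the cells were sorted, one allele carries GFP, and reads of the coding transgene cannot be told from its own. FOXE1 fell from 382 and 364 to 204 and 218 CPM (-0.82 ± 0.14) and HHEX from 302 and 264 to 149 and 162 CPM (-0.86 ± 0.14). PAX8 had 500 and 527 and then 536 and 500 CPM (0.01 ± 0.12, adjusted p = 0.984), with overlapping libraries and a sign that turned under 3 alternatives. The transcription factors of the foregut endoderm had 5 of 18 members lower and none higher. ISL1 and EYA1 passed with each library left out, and with one library left out at a time the count was 2 or 3.

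Glycolysis and hypoxia genes had the largest share of members lower among lists of 10 or more. Of 23 tested 14 fell and 1 rose, with a median of -0.83, and 12 of the falls passed with each library left out. Between days 31 and 38 the median of this list had been 1.58 with 19 members higher, a value that shares the day 38 libraries. SLC2A1, the glucose transporter GLUT1 (chr1:42925353-42958893), stood at 367 and 394 CPM at day 31, at 1776 and 1591 at day 38 and at 667 and 586 by day 45 (-1.43 ± 0.14 for day 45 against 38, adjusted p = 2.97e-09). Day 38 was the high point, and day 45 remained above day 31 (0.72, adjusted p = 0.000169). PDK1, a pyruvate dehydrogenase kinase, went from 299 and 316 to 86.6 and 79.8 CPM (-1.88 ± 0.14, adjusted p = 1.48e-11). Its difference between day 45 and day 31 was not called (-0.23, adjusted p = 0.28).

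LDHA, lactate dehydrogenase, fell from 1608 and 1455 to 678 and 705 CPM (-1.15 ± 0.11). PGK1, ENO1 and HK2, enzymes of the glycolytic path, fell by 1.05, 0.93 and 1.16 on the log2 scale. PFKFB3 and PFKFB4, which set the level of a phosphofructokinase activator, fell by 1.53 and 1.39. VEGFA, the endothelial growth factor, fell from 1374 and 1303 to 867 and 920 CPM (-0.58 ± 0.11, adjusted p = 0.000401). GAPDH had 2425 and 2010 and then 2017 and 1829 CPM and was not called (adjusted p = 0.304). The one rise, ALDOA, rests on 4.75 and 4.89 and then 19.01 and 17.5 CPM, and its call was lost without either day 38 library (adjusted p = 0.0742 and 0.0721).

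Of 22 proliferation genes 5 fell, against 6.35% of all genes, none rose and the median was -0.55. With one library left out at a time the median ranged from -0.70 to -0.44, and not all of the 5 calls held throughout. TOP2A, the most counted member, had -0.66, and -0.44 with its call lost without day 45 replicate 1. MKI67, the Ki-67 antigen, had 172 and 163 CPM at day 38 and 81.4 and 123 by day 45 (-0.71 ± 0.16, adjusted p = 0.00218), and its call was lost without day 45 replicate 1 (adjusted p = 0.131). The embryonic RNA regulators LIN28B and TRIM71 fell by 1.88 ± 0.24 and 1.05 ± 0.21 on the log2 scale. Among insulin-like growth factor binding proteins, IGFBP2 fell from 428 and 374 to 102 and 81.3 CPM (-2.13 ± 0.17, adjusted p = 4.47e-11) and IGFBP5 from 888 and 837 to 404 and 387 CPM (-1.13 ± 0.12). IGFBP3 rose from 31.3 and 34.9 to 151 and 83.9 CPM (1.82 ± 0.24).

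**Figure D4:**
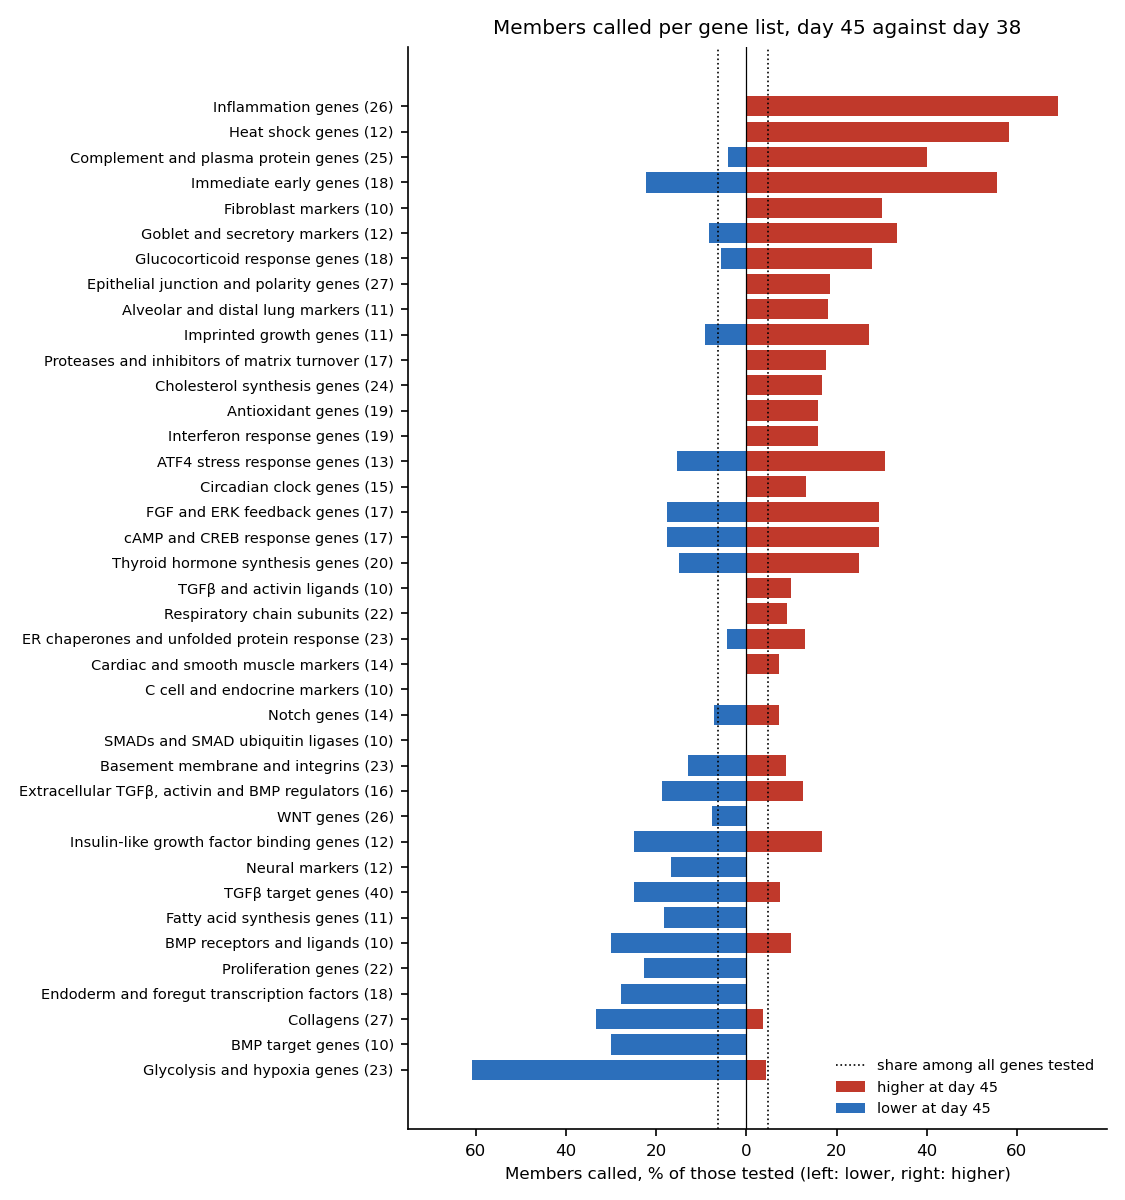
Share of the tested members of each list (number tested in brackets, lists of 10 or more) that were called higher (red, to the right) or lower (blue, to the left) at day 45, in percent. Dotted lines mark the shares among all genes tested, 4.85% higher and 6.35% lower, and the inflammation and glycolysis lists lie at the far right and far left.

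Genes of the lung and airway, organs that also arise from NKX2-1 endoderm, gave single large values. SFTPB, surfactant protein B, stood at 499 and 502 CPM at day 31, 6.59 and 8.61 at day 38 and 46.2 and 50.2 by day 45. It rose from day 38 to day 45 (2.67 ± 0.20, adjusted p = 7.72e-12) and stayed below day 31 (-3.37, adjusted p = 7.37e-17). Of 11 alveolar and distal lung markers 2 rose (SFTPB and SLC34A2), against 4.85% of all genes, and none fell. Of the 11 values 6 were negative, with a median of -0.07. SLC34A2 had 2.87, and 2.41 and 1.47 without day 38 replicate 2 or day 45 replicate 1, with its call lost in both. MUC5AC, a gel-forming mucin, had 275 and 188 counts at day 38, against 3 and 19 at day 45 (29.7 and 21.9, then 0.435 and 2.07 CPM). Its log2 fold change was -4.30 (adjusted p = 6.24e-05), and -3.63 and -5.84 without day 45 replicate 1 or 2. MUC5B, the neighbouring mucin, went from 17.1 and 13.2 to 96.5 and 47.4 CPM (2.25 ± 0.45, adjusted p = 0.000526). Without day 45 replicate 1 its value was 1.65 and the call was lost (adjusted p = 0.0894), as it was with DESeq2. The pair of mucins, neighbours on chromosome 11 that share repeat sequence, thus had opposite signs. Of 12 goblet and secretory markers 4 were higher and 1 (MUC5AC) lower, and the higher count was 1 without day 38 replicate 2 and 2 without either day 45 library.

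Plasma protein genes of hepatocyte type rose, 10 of 25 with 1 lower, and 5 were higher without day 38 replicate 2. FGB and FGG, 2 chains of fibrinogen, stood at 69.2 and 52.6 and at 33.1 and 32.8 CPM at day 31. At day 38 they were at 6.80 and 4.19 and at 3.78 and 0.582 CPM, and at day 45 at 73.4 and 76.9 and at 28.3 and 24.3 CPM. Their log2 fold changes were 3.77 ± 0.36 (adjusted p = 1.57e-09) and 3.57 ± 0.49 (adjusted p = 1.9e-06), the latter 5.46 and 2.79 without day 38 replicate 1 or 2. ALB, albumin, had 51.0 and 25.1 and then 119 and 95.8 CPM (1.49 ± 0.29, adjusted p = 0.000308), and 2.09 without day 38 replicate 1. As with SFTPB and HSPH1, day 38 lay lowest of the 3 days for the fibrinogen genes.

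**Figure D5:**
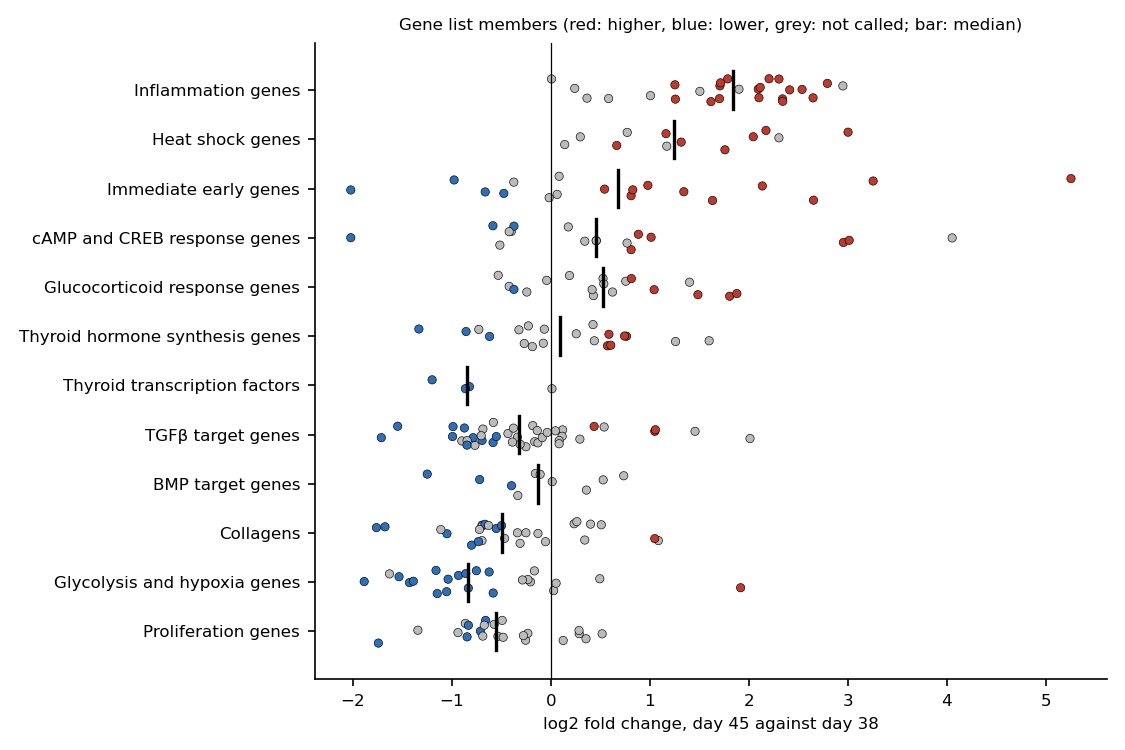
log2 fold change of day 45 against day 38 (x axis) of each tested member of 12 lists, spread vertically to separate points, with a bar at the median. All inflammation and heat shock members lie to the right of 0, most glycolysis members to the left, and the immediate early genes on both sides.

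Beyond the lists, the 5 falls with the lowest p-values were BMF, VCAN (described above), ADGRG2, STARD4-AS1 and NREP. BMF, a pro-apoptotic BCL2 relative, went from 152 and 137 to 25.7 and 28.0 CPM (-2.42 ± 0.16, adjusted p = 3.28e-13). ADGRG2, an adhesion receptor coupled to G proteins, went from 389 and 398 to 122 and 127 CPM (-1.66 ± 0.12) and NREP from 363 and 316 to 95.6 and 87.3 CPM (-1.89 ± 0.14). NREP (chr5:111662621-111997464, minus strand) and STARD4-AS1 (chr5:111510396-111739726, plus strand) overlap, so their reads cannot be told apart without the strand. Among the large gains in CPM were SLC38A2, a neutral amino acid transporter (585 and 623, then 1396 and 1420 CPM, 1.22 ± 0.11), and ACTB, β-actin (2085 and 1762, then 2749 and 2790 CPM, 0.53 ± 0.10).

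Some genes had few or no counts at one of the days. The rule was at most 3 counts in both libraries of one day and at least 10 in both of the other. Of 21014 genes tested, 171 met it with day 45 the higher and 95 with day 38 the higher. CLCA1, a secreted metalloprotease of goblet cells, had 0 counts at day 38, against 76 and 291 at day 45, at least 63.6-fold higher against a floor of 3 counts per library (at least 32.8-fold without day 45 replicate 2). MOBP, a myelin gene, had 0 counts and then 68 and 94 (at least 29.9-fold higher). TRIM72, a muscle membrane-repair protein, had 0 and 2 counts and then 249 and 232, and ASB15, a muscle ubiquitin ligase adaptor, 1 and 1 and then 149 and 205. TRIM72 (chr16:31214119-31231537) lies next to ITGAM (chr16:31259967-31332892), on the same strand. Both had been counted at day 31, TRIM72 at 52 and 31 and ASB15 at 100 and 59. In the other direction CXCR6, a chemokine receptor, fell from 48 and 61 counts to 0 (at least 16.1-fold lower), CPA6, a carboxypeptidase, from 61 and 47 to 0 (at least 15.8-fold lower), and CNTN2, a contactin, from 65 and 40 to 0 (at least 15.3-fold lower).

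MIR12136 was among the largest gains in CPM (672 and 509, then 1377 and 1892 CPM, 1.47 ± 0.14, adjusted p = 8.86e-10). Its mature sequence in RefSeq, with the seed (bases 2 to 8) in capitals, is shown because its hairpin has a mitochondrial copy.
hsa-miR-12136 (chr1:632668-632685, minus strand, GRCh38.p14): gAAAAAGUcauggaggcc
All 71 bases of its hairpin recur exactly in the mitochondrial genome at positions 7444 to 7514, over MT-TS1, a mitochondrial serine tRNA, and the end of MT-CO1. Mitochondrial genes are not among the counted symbols, so reads of the mitochondrial transcript and of this microRNA locus cannot be told apart.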

How the data were processed

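RNA-seq of sorted NKX2-1GFP+ cells was available as 10 libraries, 2 each at days 16, 23, 31, 38 and 45. The authors deposited raw read counts per gene symbol (28265 symbols) that were not normalised. The submitters' processing notes name Trimmomatic, HISAT2, HTSeq and GRCh38.p13, and the strand setting is not given in the sources used here. Groups were taken from the labels, and no column of another sample was present (0).

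A gene was tested where 2 or more libraries held 5 or more counts (21014 genes). Tests were run in R 4.3.3 with edgeR 4.0.16. The quasi-likelihood test was fitted to all 10 libraries with TMM scaling, a mean per day and 5 residual degrees of freedom, and p-values were adjusted by the Benjamini-Hochberg method over all genes tested (threshold 0.05). SE is the log2 fold change divided by the root of F. The comparisons of day 45 with day 38, day 38 with day 31 and day 45 with day 31 share libraries. Because 2 libraries a day may share handling, p-values measure the spread between these samples.

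Members and gene lists were chosen with earlier results of these data known, so counts over lists are descriptions. The text names list members and the 12 called genes in each direction with the largest fold change (mean of at least 5 CPM, libraries not overlapping). It also draws on the 6 in each direction with the largest CPM difference, the smallest p or the highest level under the rule of at most 3 counts at one day. HSPA1A was named after its values were seen, as were the examples within lists. Coordinates are from GENCODE on GRCh38 (25755 symbols matched), promoters and the microRNA from RefSeq. Alternatives were other scalings and filters, a replicate block, leaving out each library, the 4 libraries alone and DESeq2 1.42.0. Some genes are not reported here.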

Additional observations from a re-analysis of the deposited data

How the results depend on the processing

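Of 177 genes followed through the alternatives, 162 were called and 117 of these kept their call and direction in every alternative that was run. With DESeq2 2522 genes passed, 2230 of them shared with the 2353. Requiring a log2 fold change of at least 1 left 1202 genes, 604 higher and 598 lower (day 38 against 31, 1691, 1021 and 670, and day 45 against 31, 2730, 1412 and 1318). The 4 libraries alone gave 3502 genes, 1874 higher, with 5 TGFβ targets, 4 collagens and 8 glucocorticoid targets higher and a TGFβ target median of -0.29. Without TMM factors that median was -0.27, the heat shock median 1.30, the lower glucocorticoid targets 0, and day 38 against 31 gave 1183 higher and 2368 lower genes. Upper-quartile factors gave TGFβ targets a median of -0.26 with 5 higher, BMP targets -0.071, thyroid synthesis genes 0.16, heat shock genes 1.31 and 0 lower glucocorticoid targets. DESeq2 gave -0.28 for TGFβ targets and 1.30 for heat shock genes. With no filter the immediate early median was 0.80. With genes under 5 CPM left out the medians were -0.027 for thyroid synthesis (a change of sign), 1.98 for inflammation and 1.35 for heat shock. The cause was not tested in any of these.

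Leaving out one library at a time gave 1216 to 1689 genes, 501 to 719 higher and 715 to 1010 lower, and for day 38 against 31 1818 to 3297, 1100 to 1889 and 681 to 1408, with fewer samples in each fit. Medians ranged from -0.37 to -0.29 for TGFβ targets (1 to 2 higher), -0.28 to -0.0062 for BMP targets (1 to 2 lower), 0.034 to 0.20 for thyroid synthesis (1 to 3 higher), 1.73 to 2.24 for inflammation, 1.19 to 1.57 for heat shock, -0.91 to -0.66 for glycolysis (0 to 1 higher), -0.55 to -0.34 for collagens (0 to 2 higher, 4 to 9 lower) and 0.40 to 0.67 for glucocorticoid targets (3 to 4 higher, 0 to 2 lower). Signs turned for genes that were not called. TSC22D3 was 0.013 without TMM factors, 0.019 with upper-quartile factors and 0.0036 with DESeq2. COL3A1 was 0.0073 with upper-quartile factors and PAX8 -3.46e-05 with no filter. With a library left out TSC22D3 ranged from -0.15 to 0.073, COL3A1 from -0.24 to 0.11, PAX8 from -0.039 to 0.060, PTPRC from -5.34 to 0.049 and HSPA1A from -2.21 to 2.12.

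A replicate block gave 2691 genes, 2342 of them shared. The replicate numbers share only a number, since the deviations of replicate 1 at days 38 and 45 correlated at -0.024. A value of 3 counts (0.324 to 0.435 CPM) sets the depth limit.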

Other observations

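Replication-dependent histone genes, picked by symbol after the values were seen, fell. Of 54 tested 31 were lower and 0 higher at day 45, 52 had a negative log2 fold change and the median was -1.22, against 0.18 between days 31 and 38. With each library left out, 22 of the 31 passed. Many histone genes are near-identical copies, so counts of single members are uncertain.

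Other lists gave smaller counts, to be read against the 4.85% of all genes called higher and the 6.35% called lower. Of 24 cholesterol synthesis genes 4 rose, with fewer called without day 38 replicate 1, day 38 replicate 2 or day 45 replicate 1. Of 11 fatty acid synthesis genes FADS1 and FADS2 fell. Of 13 genes of the ATF4 response 4 rose and 2 fell. Of 6 metallothioneins 3 rose, none of them with each library left out. Of 12 neural markers MAP2 and OTX2 fell, and both passed with each library left out. Of 10 C cell markers none was called by edgeR or DESeq2, with 0 higher and 2 lower at an unadjusted p under 0.05. Of 8 endothelial markers none was called by either tool, with 1 higher at an unadjusted p under 0.05.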
